A study of Mus musculus with 6 samples.

Results

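The 41 genes described here carry out the integrated stress response and the unfolded protein response. They were taken as the rows of the deposited table whose Ensembl gene ID maps, in GENCODE M21, to a list of symbols holding 20 genes of the ATF4 arm, 8 of the IRE1/XBP1 arm and 13 of the ATF6 arm. The table lists 54532 gene IDs, and 42 of them map to these symbols, because Ddit3 has a second ID with 105 bases of exon that is listed at 0 in every sample and was set aside. All 41 genes were among the 13794 tested, which had a mean of at least 0.5 FPKM (fragments per kilobase of transcript, adjusted for library size) over the samples. The split into arms is approximate, since several of these genes respond to more than 1 arm.

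Poly-A RNA was sequenced from primary cardiomyocytes (beating heart muscle cells) of newborn mice whose Rit1 gene was built so that Cre recombinase turns on a pathogenic form, M90I, of the RAS-like GTPase RIT1. On day 3 of culture the cells received an adenovirus carrying GFP alone (AdGFP, labelled Rit1 +/+) or GFP with Cre (AdCre, labelled Rit1 M90I/+), with 3 samples per group, numbered 1 to 3 in both. All 6 cultures thus received a virus carrying GFP, and no wild-type cells given Cre were analysed here, so the variant and the recombinase cannot be told apart. Cells that stuck to plastic within hours had been discarded, and the remainder, about 1 heart per well, was grown on laminin in serum-containing medium. The labels call the samples biological replicates but do not say whether they came from separate hearts, litters or cultures. The p-values thus set each difference against the variation among these samples, whatever its source. The comparison asks how the stress pathways of these cells stood after the variant was switched on.

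Both responses adjust protein synthesis and folding under stress. In the integrated stress response, kinases such as PERK phosphorylate the initiation factor eIF2, general translation falls, and the mRNA of the transcription factor ATF4 is translated more, which turns on genes of amino acid supply, redox defence and, when stress persists, cell death. In the unfolded protein response, PERK, IRE1 and ATF6 sense misfolded protein in the endoplasmic reticulum (ER): IRE1 splices the Xbp1 mRNA, and ATF6 is cut to release a transcription factor, and both raise the ER chaperones and the machinery of protein disposal. Cardiomyocytes depend on the ER, in its specialised form the sarcoplasmic reticulum, for calcium handling, and both responses are known in stressed heart muscle. Kinase activity, splicing and cleavage were not measured, so what follows concerns mRNA levels only.

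The promoters of these genes are shown first, because they hold sites of the factors that give the arms their names and do not depend on the expression values. RefSeq promoters (GRCm38.p6) matched 36 of the 41 genes, not Aldh1l2, Slc7a5, Atf6, Hyou1 or Manf, and the 250 bases before the start were searched on both strands. The ER stress element (ERSE), the site bound by ATF6 with NF-Y, was searched as CCAAT and CCACG separated by 9 bases. It was found in 6 of 10 ATF6-arm promoters, in 2 of 8 of the IRE1/XBP1 arm and in 0 of 18 of the ATF4 arm, against 0.13% of the 27025 genes with a promoter. In the stretches below, read 5′ to 3′ on the strand of the gene, capitals mark both letter groups of each match.
Hspa5, chr2:34772013-34772055: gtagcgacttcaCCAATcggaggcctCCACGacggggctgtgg
Calr, chr8:84847063-84847105: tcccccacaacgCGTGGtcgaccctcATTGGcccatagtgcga
Canx, chr11:50325788-50325830: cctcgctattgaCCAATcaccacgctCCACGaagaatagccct
Pdia6, chr12:17266479-17266521: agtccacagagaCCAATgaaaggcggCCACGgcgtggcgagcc
Creld2, chr15:88819508-88819550: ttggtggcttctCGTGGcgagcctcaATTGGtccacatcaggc
Hsp90b1, chr10:86705521-86705668: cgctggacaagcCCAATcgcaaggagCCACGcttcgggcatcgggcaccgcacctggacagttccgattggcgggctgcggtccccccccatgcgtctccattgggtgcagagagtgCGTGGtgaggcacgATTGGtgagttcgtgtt
Dnajc3, chr14:118937815-118937857: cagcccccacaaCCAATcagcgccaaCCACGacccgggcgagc
Syvn1, chr19:6046520-6046562: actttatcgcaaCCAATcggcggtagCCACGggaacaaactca
The element lay on the strand of the gene in Hspa5, Canx, Pdia6, Dnajc3 and Syvn1, on the opposite strand in Calr and Creld2, and once on each in Hsp90b1.

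The composite site bound by ATF4 with C/EBP proteins was searched as TGATG, any base, AA and then T or C. It was found in 4 of 18 ATF4-arm promoters and in Herpud1, against 1.66% of all promoters. Herpud1, which helps to dispose of misfolded ER proteins, held this site and also ERSE-II, searched as ATTGG and CCACG separated by 1 base, which was found in 0.037% of all promoters and shares its letter groups with ERSE at another spacing. Capitals again mark the matches.
Chac1, chr2:119351036-119351068: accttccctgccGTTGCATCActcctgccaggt
Asns, chr6:7693212-7693244: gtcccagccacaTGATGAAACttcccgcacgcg
Fgf21, chr7:45615610-45615642: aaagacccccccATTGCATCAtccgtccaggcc
Nupr1, chr7:126625561-126625593: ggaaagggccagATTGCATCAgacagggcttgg
Herpud1, ATF4 composite site, chr8:94386304-94386336: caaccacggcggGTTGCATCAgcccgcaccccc
Herpud1, ERSE-II, chr8:94386365-94386399: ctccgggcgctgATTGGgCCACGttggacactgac
A further motif, the core bound by XBP1 (TGACG followed by TGG), was in 0.603% of all promoters and in 0 of the 36. These are letter matches, not measured binding, and a promoter without a match may hold a looser version.

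Reads worked back from the table came to between 25.28 and 26.55 M (megareads) in AdGFP and between 25.98 and 32.43 M in AdCre. At these depths 39 of the 41 genes had at least 200 reads in every sample, the exceptions being Slc7a11, with 136 to 889 reads, and Fgf21, with 6 to 44. Of 9 cardiomyocyte markers 7 fell in AdCre in the fit that pairs samples of the same number, which called 6.15% of all genes, and their summed level was 1910 to 2580 FPKM in AdGFP and 1060 to 1800 FPKM in AdCre. In the same fit 3 of 8 fibroblast markers fell, while 4 of 7 endothelial markers and 1 of 5 epicardial and mesothelial markers, Krt8, rose. In the fit without pairing, none of these 15 genes passed. On the epicardial and mesothelial list the direction was mixed. Krt8 and Krt19 had log2 fold changes, AdCre over AdGFP, of 1.48 and 0.35, and Wt1, Upk3b and Msln had -0.38, -0.66 and -1.08. The summed levels, in FPKM, were 2590 to 4640 in AdGFP and 2270 to 3320 in AdCre for fibroblast markers, 88.8 to 132 and 131 to 187 for endothelial, 142 to 188 and 155 to 165 for smooth muscle and pericyte, 123 to 223 and 189 to 248 for epicardial and mesothelial, and 12.5 to 52.9 and 25.6 to 65 for 5 macrophage markers. No marker on these lists was at 0 in a sample, the lowest value being 0.113 FPKM for Ptprc. The cultures thus expressed markers of cardiomyocytes and of other heart cells, and the part of the differences in marker level in the values below was not tested. In bulk samples fewer cells of a type and less RNA per cell cannot be told apart.

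No gene of the 41 passed the test between AdCre and AdGFP. Levels were compared as log2(FPKM + 0.1) in limma fitted to all 13794 genes, with Benjamini-Hochberg adjustment and a threshold of 0.05, which makes the fold changes of weakly expressed genes smaller than their true ratios. Without pairing, 0 of the 41 were called, against 0.00725% of all genes, a single gene, and 1 of the 41 had an unadjusted p under 0.05, against 10.2% of all genes. Same-numbered samples deviated together, so the replicate number was also fitted as a block. The block again called 0 of the 41, against 6.15% of all genes, and gave 8 of them an unadjusted p under 0.05, against 24.7%. With limma voom on the recovered reads 0 of the 41, and 0 of all genes, were called without the block. With the block voom called 12.6% of all genes and 6 of the 41, namely Atf5, Phgdh, Hyou1, Pdia4 and Pdia6, which were higher in AdCre, and Slc7a11, which was lower. With the values rescaled to TPM the block called 6.34% of all genes and 2 of the 41, Atf5 and Phgdh. Whether a gene was called with the block thus depended on the scaling and on the model.

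**Figure D1:**
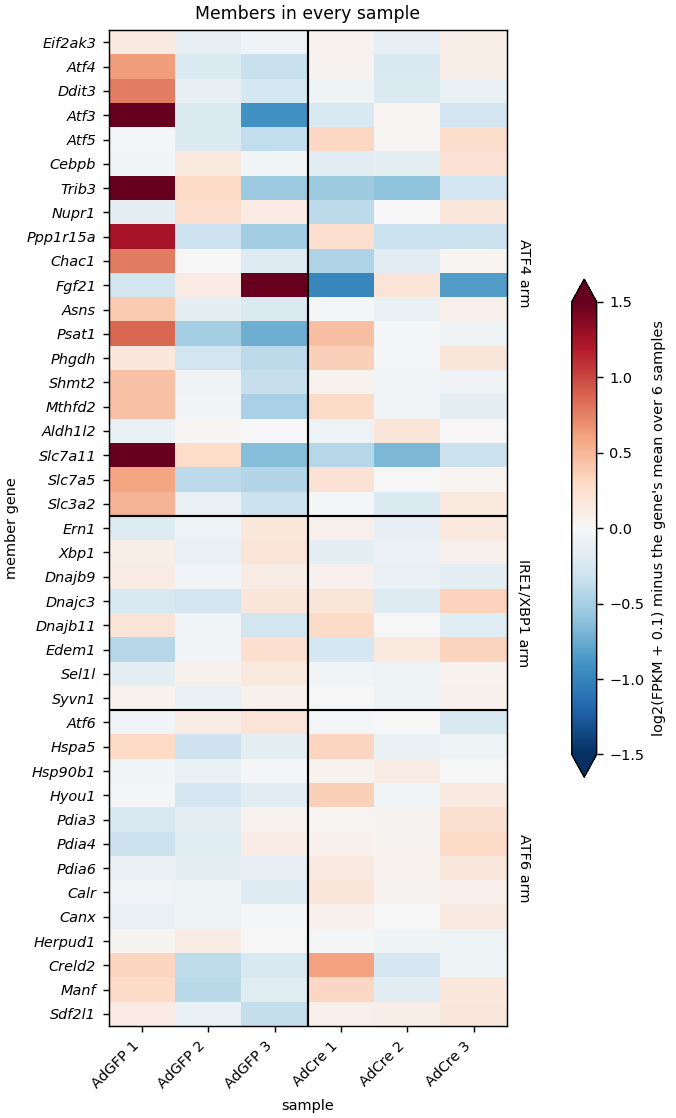
Level of each of the 41 genes (rows, grouped by arm) in each of the 6 samples (columns), drawn as log2(FPKM + 0.1) minus the mean of the gene over the samples, with red above and blue below that mean and values beyond 1.5 drawn in the end colour. AdGFP 1 holds the highest value of 14 of the 20 ATF4-arm genes, and most ATF6-arm genes are slightly redder in the AdCre columns.

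By arm, the median log2 fold change, AdCre over AdGFP, was -0.05 in the ATF4 arm, 0.03 in the IRE1/XBP1 arm and 0.20 in the ATF6 arm, beside -0.00 over all genes tested. Groups did not overlap, with AdCre higher, for 5 of the 41, against 7.36% of all genes, and with AdCre lower for 1, against 8.02%. AdCre was higher within all 3 same-numbered pairs for 15 of the 41, against 23.9% of all genes, and lower for 2, against 24.5%. Of those 15 genes, 10 belonged to the ATF6 arm, 3 to the IRE1/XBP1 arm and 2 to the ATF4 arm. None of these counts was tested.

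**Figure D2:**
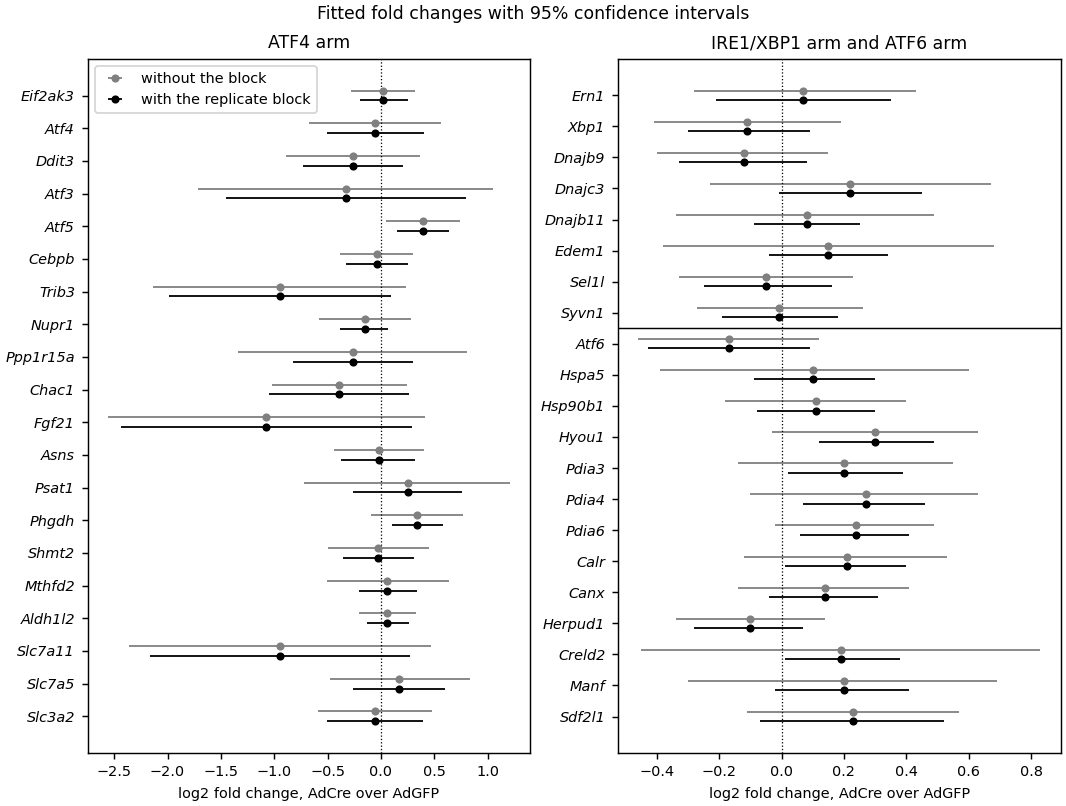
Log2 fold change of each gene, AdCre over AdGFP (points), with its 95% confidence interval (lines) without the block in grey and with the replicate block in black; the panels have different horizontal scales. In the ATF4 arm the intervals of Atf3, Trib3, Fgf21 and Slc7a11 are the widest, and in the ATF6 arm 11 of 13 points lie above 0.

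In the ATF4 arm the control samples spread more widely than the AdCre samples. AdGFP 1 held the highest value of the 6 samples for 14 of the 20 genes, against 22.9% of all genes, and AdGFP 3 held the lowest for 12 of the 20, against 18.4%. Relative to the mean of each gene, the median level of the arm was 0.48 in AdGFP 1, -0.11 in AdGFP 2 and -0.34 in AdGFP 3, and between -0.07 and 0.01 in the AdCre samples, on the log2 scale. AdGFP 1 exceeded the mean of AdGFP 2 and 3 by a median of 0.72, and by at least 1 in 6 of the 20 genes, against 3.82% of all genes, while AdCre 1 exceeded AdCre 2 and 3 by a median of 0.07. The same sample had the lowest summed endothelial and macrophage markers of all 6, and the part of this in the result was not tested. In the differences within pairs the ATF4 arm had a median of -0.41 in pair 1, 0.00 in pair 2 and 0.30 in pair 3, so AdCre was higher for 3, 11 and 18 of the 20 genes. Without AdGFP 1 the median fold change of the arm was 0.18 in place of -0.05, and 14 of the 20 genes lay above 0 in place of 7. Without AdGFP 3 the median was -0.18.

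**Figure D3:**
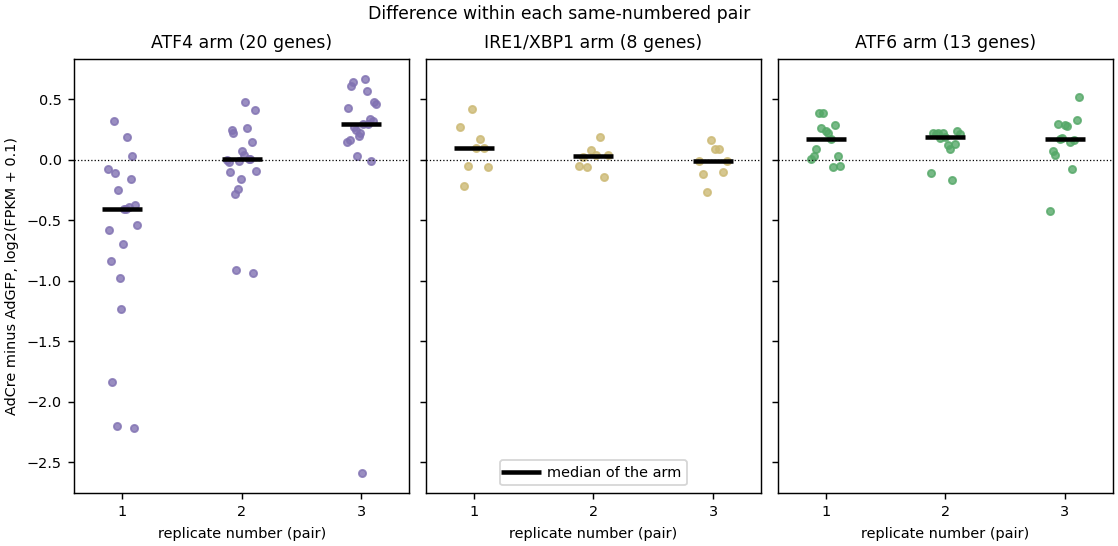
Difference AdCre minus AdGFP in log2(FPKM + 0.1) within each same-numbered pair (horizontal axis, replicate number) for the genes of each arm, with 1 point per gene and a black bar at the median. The ATF4 arm has medians of -0.41, 0.00 and 0.30, while the ATF6 arm has 0.17, 0.19 and 0.17.

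Among the regulators of this arm, Eif2ak3 (chr6:70844515-70905245), which encodes the sensor PERK, had 7.54, 6.31 and 6.62 FPKM in AdGFP 1 to 3 and 7.12, 6.31 and 7.34 FPKM in AdCre 1 to 3. The samples overlapped, with a log2 fold change of 0.02 (95% confidence interval -0.28 to 0.32; limma adjusted p = 0.983). Atf4 (chr15:80255184-80257541), the central transcription factor, had 107, 60 and 54.8 FPKM in AdGFP and 71.4, 59 and 73.8 FPKM in AdCre. AdGFP 1 was the highest and all AdCre samples lay within the AdGFP range, with a log2 fold change of -0.06 (-0.67 to 0.56; limma adjusted p = 0.977). Without AdGFP 1 that value was 0.24 (limma adjusted p = 0.559).

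Ddit3 (chr10:127290774-127296288), which encodes the death-promoting factor CHOP, had 24.2, 13 and 11.8 FPKM in AdGFP and 13.5, 12.2 and 13.2 FPKM in AdCre. Atf3 (chr1:191170296-191218039), a stress-induced factor downstream of ATF4, had 22.9, 6.33 and 3.9 FPKM in AdGFP and 6.32, 7.53 and 6.02 FPKM in AdCre. In both genes AdGFP 1 stood well above the other 5 samples, and the log2 fold changes were -0.26 for Ddit3 (limma adjusted p = 0.828) and -0.33 for Atf3 (limma adjusted p = 0.915). Without AdGFP 1 both turned positive, at 0.06 for Ddit3 (limma adjusted p = 0.854) and 0.40 for Atf3 (limma adjusted p = 0.532).

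Trib3 (chr2:152337422-152344032), a pseudokinase induced by ATF4 and CHOP that restrains AKT, had 51.6, 20 and 11.1 FPKM in AdGFP and 11.2, 10.6 and 13.3 FPKM in AdCre. The group means were 27.6 ± 21.3 and 11.7 ± 1.41 FPKM (SD, n = 3 each), and AdGFP 3 lay within the AdCre range. The log2 fold change of -0.95 (SE 0.50; limma adjusted p = 0.597, and 0.236 with the block) became -0.36 without AdGFP 1 (limma adjusted p = 0.609). Slc7a11 and Ppp1r15a, named after their values were seen, followed the same sample. Slc7a11, the cystine importer, had 2.58, 0.836 and 0.396 FPKM in AdGFP and 0.478, 0.387 and 0.518 FPKM in AdCre. Ppp1r15a, which encodes the phosphatase subunit GADD34 that reverses the eIF2 block, had 32.1, 10.9 and 9.39 FPKM in AdGFP and 16.2, 10.8 and 10.8 FPKM in AdCre. In Ppp1r15a both replicate 1 samples were the highest of their groups, and its log2 fold change of -0.26 became 0.29 without AdGFP 1. The blocked voom call of Slc7a11, with a log2 fold change of -1.33 (limma voom adjusted p = 0.050), rests on AdGFP 1 and AdGFP 2, since AdGFP 3 lay within the AdCre range.

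**Figure D4:**
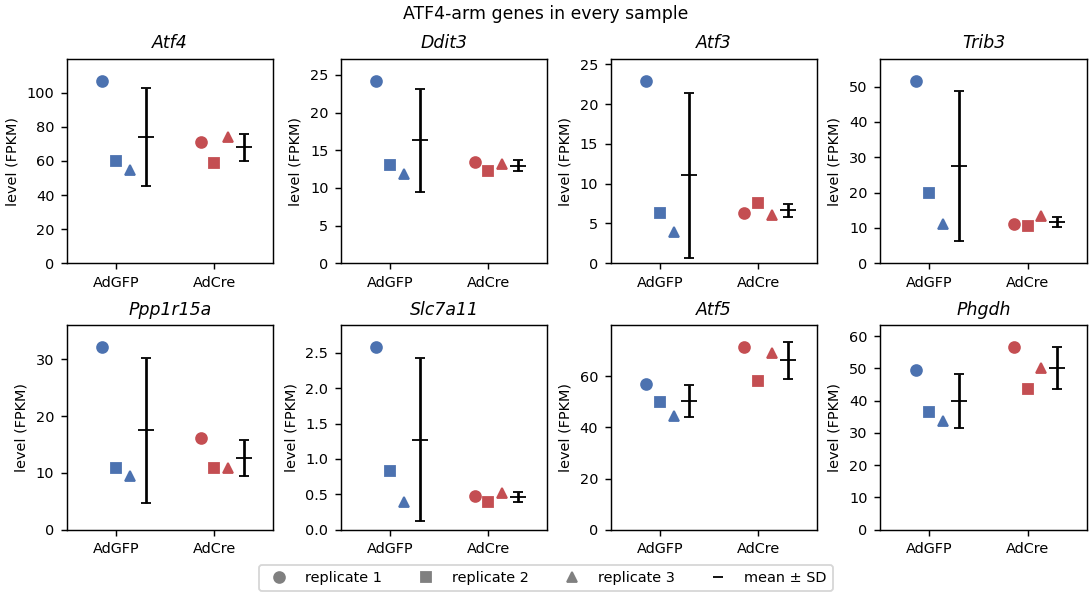
Level in FPKM of 8 ATF4-arm genes in AdGFP (blue) and AdCre (red), with circles, squares and triangles for replicates 1, 2 and 3 and a black bar and whiskers for the mean ± SD. AdGFP 1 stands apart in the first 6 panels, and in the Atf5 panel the groups do not overlap.

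Atf5 (chr7:44812256-44816658), a relative of ATF4 that controls mitochondrial stress genes, went the other way. It had 57.1, 49.9 and 44.5 FPKM in AdGFP and 71.4, 58.1 and 69.3 FPKM in AdCre, with means of 50.5 ± 6.29 and 66.3 ± 7.15 FPKM (SD, n = 3 each). The lowest AdCre value, 58.1 FPKM, lay above the highest AdGFP value, 57.1 FPKM. The log2 fold change was 0.39 (0.05 to 0.74; limma adjusted p = 0.429), and it missed the threshold with the block as well (limma adjusted p = 0.0798). It was called with the block on TPM (limma adjusted p = 0.0423) and with blocked voom (limma adjusted p = 0.0168). An antisense gene covers 4.1% of its exon bases, and whether the counting used strand is not given in the sources used here.

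Among the targets of ATF4, 0 genes of serine synthesis and one-carbon metabolism were called in either limma fit. Phgdh (chr3:98313170-98339990), the entry enzyme of serine synthesis, had 49.4, 36.4 and 33.7 FPKM in AdGFP and 56.5, 43.6 and 50 FPKM in AdCre. AdCre was higher in all 3 pairs, although AdGFP 1 lay above AdCre 2, and the log2 fold change was 0.34 (-0.09 to 0.77; limma adjusted p = 0.601, and 0.10 with the block). Its transcripts share 47.8% of their 50-base words with other genes, most of all with the pseudogene Gm7901, which was listed at no more than 0.332 FPKM. How far the shared words affect the count of Phgdh was not tested. Psat1, the next transaminase of the pathway, was named after its values were seen and had 48.4, 18.7 and 15.9 FPKM in AdGFP and 36.4, 26.1 and 25.4 FPKM in AdCre. The mitochondrial folate enzymes had log2 fold changes of -0.03 for Shmt2, 0.06 for Mthfd2 and 0.06 for Aldh1l2, and asparagine synthetase, Asns, had -0.02. Without AdGFP 1, the highest sample for Shmt2, Mthfd2 and Asns, these were 0.19, 0.30 and 0.17.

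The amino acid transporter subunits Slc7a5 and Slc3a2 had log2 fold changes of 0.17 and -0.06, and without AdGFP 1, the highest sample for both, 0.51 and 0.18. With pair 1 left out, the block called 5.6% of all genes and 2 of the 41, Psat1 at 0.57 (limma adjusted p = 0.0302) and Slc7a5 at 0.44 (limma adjusted p = 0.0482). With all 3 pairs the same fit gave an adjusted p of 0.514 for Psat1 and 0.592 for Slc7a5. Of the remaining members, Cebpb, a partner of ATF4, had a log2 fold change of -0.04, the chromatin-binding stress protein Nupr1 had -0.15 and the glutathione-degrading enzyme Chac1 had -0.39. Without AdGFP 1, the highest sample for Chac1, these were -0.07, -0.26 and -0.10. The stress hormone Fgf21 was low throughout, between 0.197 and 1.88 FPKM, with the highest value in AdGFP 3. Its log2 fold change was -1.08 (-2.56 to 0.41), with differences of -0.70, 0.07 and -2.59 within pairs 1, 2 and 3. An antisense gene covers 20.7% of the exon bases of Cebpb and 14.1% of those of Aldh1l2.

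In the IRE1/XBP1 arm the groups lay close together. Ern1 (chr11:106394650-106487852), which encodes IRE1, had 3.56, 3.86 and 4.58 FPKM in AdGFP and 4.32, 3.73 and 4.54 FPKM in AdCre. Xbp1 (chr11:5520659-5525893), its splicing target, had 43.7, 38.2 and 47 FPKM in AdGFP and 37.6, 38.7 and 43.2 FPKM in AdCre. The samples overlapped in both genes, and the log2 fold changes were 0.07 (-0.28 to 0.43; limma adjusted p = 0.934) for Ern1 and -0.11 (-0.41 to 0.19; limma adjusted p = 0.856) for Xbp1. The table gives 1 value per gene, so spliced and unspliced Xbp1 were not separated.

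None of the targets of XBP1 was called in either limma fit, and differences between them were not tested. Dnajb9, an ER co-chaperone that holds IRE1 in check, had 22.2, 20 and 22.3 FPKM in AdGFP and 21.5, 19.2 and 18.5 FPKM in AdCre. It was lower in all 3 pairs, with a log2 fold change of -0.12 (-0.40 to 0.15; limma adjusted p = 0.8), and shares 5.5% of its 50-base words with other genes. Dnajc3, an ER co-chaperone that also inhibits PERK, had 23, 22.4 and 30.7 FPKM in AdGFP and 30.7, 23.7 and 34.4 FPKM in AdCre. It was higher in all 3 pairs, with a log2 fold change of 0.22 (-0.23 to 0.67; limma adjusted p = 0.779, and 0.212 with the block). Over the alternative runs given below, the fold change of Dnajc3 ranged from 0.10 to 0.37. The co-chaperone Dnajb11, at 0.08, and Edem1, at 0.15, which passes misfolded glycoproteins to degradation, were also higher in all 3 pairs, and without AdGFP 1 their fold changes were 0.19 and -0.03. Sel1l and Syvn1, the core of the ubiquitin ligase for ER proteins, had log2 fold changes of -0.05 and -0.01. With the block the interval of every gene in this arm spanned 0 and stayed between -0.33 and 0.45.

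The ATF6 arm holds mostly the abundant chaperones and folding enzymes of the ER. Of its 13 genes 11 had a log2 fold change above 0 and 10 were higher within all 3 pairs, against 23.9% of all genes, namely Hspa5, Hsp90b1, Hyou1, Pdia3, Pdia4, Pdia6, Calr, Canx, Creld2 and Manf. None of them passed the limma test in either fit, and the block gave 6 of the 13 an unadjusted p under 0.05, against 24.7% of all genes. All 13 were measured in the same samples, so they are not separate observations. Their median SD within groups was 0.129 on the log2 scale, against 0.241 over all genes tested. The median level of the arm, relative to the mean of each gene, was -0.03, -0.13 and -0.12 in AdGFP 1 to 3 and 0.07, 0.00 and 0.13 in AdCre 1 to 3, and the lowest AdCre sample lay just above the highest AdGFP sample. The median difference was 0.17, 0.19 and 0.17 in the 3 pairs, beside 0.01, -0.01 and 0.00 over all genes tested. With each sample left out in turn the median fold change of the arm, 0.20, stayed above 0, and it was lowest at 0.13 without AdGFP 2 and 0.14 without AdCre 1 and highest at 0.24 without AdGFP 1.

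Atf6 (chr1:170704674-170867771) itself, the sensor, had 15.5, 17.2 and 18.3 FPKM in AdGFP and 15.6, 15.9 and 13.6 FPKM in AdCre. Its log2 fold change was -0.17 (-0.46 to 0.12; limma adjusted p = 0.712), so the transcript of the sensor was not among those that were higher. Hspa5 (chr2:34771970-34777547), which encodes BiP, the main ER chaperone and the usual marker of this response, had 295, 193 and 217 FPKM in AdGFP and 300, 224 and 227 FPKM in AdCre. Both replicate 1 samples were the highest of their groups, and the groups overlapped. The log2 fold change was 0.10 (-0.39 to 0.60; limma adjusted p = 0.932), and with the block the interval was -0.09 to 0.30 (limma adjusted p = 0.477). Without AdGFP 2, or without AdCre 1, the fold change was -0.03.

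The 3 genes with the smallest p in this arm were Pdia6, Hyou1 and Pdia4. Pdia6 (chr12:17266545-17284770), a disulfide isomerase that also regulates the sensors, had 82, 79.7 and 80.9 FPKM in AdGFP and 96.7, 90.8 and 98.7 FPKM in AdCre. The groups did not overlap, and the log2 fold change was 0.24 (-0.02 to 0.49; limma adjusted p = 0.52, and 0.109 with the block). Hyou1 (chr9:44379490-44392369), an ER chaperone that exchanges the nucleotide of BiP, had 24.8, 21.1 and 22.4 FPKM in AdGFP and 32.4, 24.6 and 27.6 FPKM in AdCre. AdCre 2 lay just below AdGFP 1, and the log2 fold change was 0.30 (-0.03 to 0.63; limma adjusted p = 0.531, and 0.0773 with the block). Pdia4, another disulfide isomerase, had 71.8, 79.1 and 96.9 FPKM in AdGFP and 94.2, 92.5 and 110 FPKM in AdCre. AdGFP 3 lay above 2 AdCre samples, and the log2 fold change was 0.27 (-0.10 to 0.63; limma adjusted p = 0.638, and 0.108 with the block). Without AdGFP 1 the fold change was 0.17 for Pdia4, 0.25 for Pdia6 and 0.36 for Hyou1. Blocked voom called all 3, with adjusted p between 0.0197 and 0.0348 (limma voom).

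The lectin chaperones of glycoprotein folding, Calr and Canx, and the chaperone Hsp90b1 had groups that did not overlap, at mean levels of 357 ± 20.7 and 412 ± 21.4 FPKM for Calr, 123 ± 4.49 and 135 ± 6.62 FPKM for Canx, and 222 ± 6.23 and 240 ± 8.48 FPKM for Hsp90b1 in AdGFP and AdCre (SD, n = 3 each). Their log2 fold changes were 0.21, 0.14 and 0.11. Pdia3, the isomerase that works with them, had 0.20, the secreted ER proteins Creld2 and Manf had 0.19 and 0.20, and Sdf2l1, which keeps unfolded proteins soluble, had 0.23 but was lower in AdCre in pair 1. Without AdGFP 1 the fold changes were 0.14 for Pdia3, 0.40 for Creld2, 0.39 for Manf and 0.35 for Sdf2l1. Herpud1 was the exception with Atf6: its groups did not overlap in the other direction, with 38.7, 40.5 and 37.5 FPKM in AdGFP and 37.2, 36 and 35.6 FPKM in AdCre, a log2 fold change of -0.10 (limma adjusted p = 0.82). The promoter of Herpud1 held ERSE-II and the ATF4 site but no ERSE. Those of Pdia3, Pdia4 and Sdf2l1, with positive log2 fold changes, held no ERSE either, and a link of site to direction was not tested. An antisense gene covers 10.3% of the exon bases of Hsp90b1.

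Set beside the promoters, the 8 genes of the list with an exact ERSE had a median log2 fold change of 0.16, and 7 of them, all but Syvn1, were higher in all 3 pairs. In the ATF6 arm the searched promoters of Pdia3, Pdia4, Sdf2l1 and Herpud1 held no ERSE. The log2 fold changes of these genes were 0.20, 0.27, 0.23 and -0.10. Outside the list 7 tested genes held an ERSE, of which 2 were higher in all 3 pairs, and their median was 0.06. The 5 genes of the list with an ATF4 composite site had a median of -0.15, with 0 higher and 1 lower in all 3 pairs. The lower gene was Herpud1, of the ATF6 arm, and Fgf21 had only 6 to 44 reads. Without AdGFP 1 the log2 fold changes were -0.10 for Chac1, 0.17 for Asns, -0.26 for Nupr1, -1.48 for Fgf21 and -0.10 for Herpud1. Outside the list 101 tested genes held that site, with a median of 0.03, 32 higher and 19 lower in all 3 pairs, and the block called 4 of them higher and 3 lower. Over all genes tested 23.9% were higher and 24.5% lower in all 3 pairs. None of the list's genes with either site was called on FPKM with or without the block, and blocked voom called 1 of them, Pdia6.

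The other genes of these pathways, from lists of general knowledge, gave 1 call. Over all genes tested, 10.2% had an unadjusted p under 0.05 without the block and 24.7% with it, and the block called 6.15%. Of 12 genes for eIF2 kinases, phosphatase and exchange factor 0 were called in either limma fit, with 1 at an unadjusted p under 0.05 without the block and 2 with it, and 10 had a log2 fold change above 0. The gene with the smallest blocked p there was Eif2b5, a subunit of the eIF2 exchange factor, at 0.31 (limma adjusted p = 0.0629 with the block). Of 23 tested further ATF4 targets 0 were called (2 at an unadjusted p under 0.05, 5 with the block), and the smallest blocked p belonged to Vldlr, a lipoprotein receptor, at -0.77 (limma adjusted p = 0.121 with the block). Of 13 tRNA synthetase and export genes 0 were called (0 at an unadjusted p under 0.05 in either fit), and AdGFP 1 was the highest sample for 12 of them. The smallest blocked p was that of Nars, at 0.22 (limma adjusted p = 0.211 with the block).

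Of 28 genes of ER translocation, transport and degradation 1 fell with the block, which called 6.15% of all genes, and 0 were called without it. This was Spcs3, a subunit of the signal peptidase that trims proteins entering the ER, with 101, 124 and 101 FPKM in AdGFP and 47.7, 87.5 and 52.4 FPKM in AdCre. Every AdCre sample lay below every AdGFP sample, with a log2 fold change of -0.85 (limma adjusted p = 0.329, and 0.0269 with the block). The block called it in 12 of 15 settings, not without a filter on low values, without the intensity trend or without pair 3. Of 20 genes of ER folding, redox control and ATF6 processing 0 were called (0 at an unadjusted p under 0.05, 4 with the block, against 10.2% and 24.7% of all genes), with the smallest blocked p for the co-chaperone Dnajc1, at -0.36 (limma adjusted p = 0.0802 with the block). The median log2 fold change was 0.04 in the ER translocation list, 0.05 in the ER folding list and 0.10 in the eIF2 list. In all 3 pairs 9, 8 and 5 of their genes were higher and 7, 4 and 0 lower, against 23.9% and 24.5% of all genes. Of 10 mitochondrial chaperones and proteases 0 were called (0 at an unadjusted p under 0.05, 2 with the block), with the smallest for the protease Lonp1, at -0.46 (limma adjusted p = 0.0775 with the block), and AdGFP 1 was the highest sample for 7 of the 10. Over these 6 lists limma voom called 0 genes without the block, and with it, where it called 12.6% of all genes, it called 5, namely Eif2ak2 and Eif2b5, which were higher in AdCre, and Vldlr, Spcs3 and Lonp1, which were lower.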

How the data were processed

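The deposited table holds FPKM made by the authors, with 1 column per sample, no pooled columns and no counts. The submitters' processing notes name fastp, STAR 2.5, HTSeq 0.6.1 and mm10, without saying which step each served; the annotation release and the use of strand are not given in the sources used here. FPKM times exon length (GENCODE M21, which holds 54495 of the 54532 IDs) was a whole number of reads within 0.02 for 96.3 to 96.4% of values, and those reads gave the depths. The denominators of the FPKM were 0.931 to 1.0255 times the reads, so the authors had rescaled the libraries; tests use the FPKM as deposited. Precision was limited by 3 samples per group.

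Genes averaging 0.5 FPKM or more were fitted as log2(FPKM + 0.1) in limma 3.58.1 (R 4.3.3; lmFit, eBayes with an intensity trend; two-sided, Benjamini-Hochberg over all genes tested), without and with the replicate number as a block. The labels give replicate numbers but no meaning for them. Deviations from group means correlated at 0.568, 0.268 and 0.506 between same-numbered samples and at -0.497 to 0.036 otherwise, so the numbers were taken as pairs. Deviations cancel out within a group, so the correlations between other samples are not independent of those between same-numbered samples. The check used the same values that were then fitted. Limma voom was run on the recovered reads.

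The members, arms and lists were chosen with earlier results of these data known. Per-sample values were given for the sensors and factors, Hspa5, any gene called, and the 3 smallest p in each arm; other pathway lists gave their called genes or the smallest blocked p. Shared sequence was the share of 50-base words of a gene's transcripts found in those of other genes. Python 3.11.15, numpy 2.4.6, pandas 2.3.3 and matplotlib 3.10.9 were used.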

Additional observations from a re-analysis of the deposited data

How the results depend on the processing

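Without the block, 0 members were called in limma under each alternative run (protein-coding genes, a filter at 1 FPKM or none, pseudocounts of 0.01 and 1, TPM, median centring, quantile normalization, no intensity trend, voom, values without the authors' scaling factors, and each sample or pair left out). With the replicate block, 0 members were called, but 2 on TPM, 6 with voom and, with a pair left out, 0 to 2. Over all genes the block called 848, but 17 without a filter, 0 without the intensity trend, 1739 with voom, and 149 or 1 without pair 2 or 3; the cause was not tested. Of the 848, 42.9% were higher in AdCre, against 61.5% on TPM, 57.8% with voom and 54.7% without the authors' scaling factors. The median of the ATF6 arm (0.20) was 0.29 on TPM, 0.27 with voom and 0.26 without the scaling factors, settings that moved the median of all genes to 0.09, 0.06 and 0.06, and 0.13 to 0.24 with samples left out. Its count of genes higher in all pairs was 10 or 11, while the share over all genes went from 23.9% to 34.7% on TPM, 31.3% without the scaling factors and 31.7% to 33.0% with a pair left out, when only 2 pairs were counted. The ATF4 arm (-0.05) ranged from -0.22 to 0.18 with samples or pairs left out, and was 0.04 on TPM and 0.01 with quantile normalization, with voom and without the scaling factors. The IRE1/XBP1 arm (0.03) ranged from -0.02 to 0.06, and was 0.12, 0.10 and 0.09 on TPM, with voom and without the scaling factors.

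Of the 16 genes given in every sample by the naming rule, direction turned for 6, which no fit called. Atf4 was 0.03 on TPM, 0.01 with quantile normalization, and 0.00 with voom and without the scaling factors. With each sample left out in turn, log2 fold changes ranged from -0.03 to 0.10 for Eif2ak3, -0.01 to 0.17 for Ern1, -0.24 to 0.24 for Atf4, -0.45 to 0.06 for Ddit3, -0.86 to 0.40 for Atf3 and -0.03 to 0.28 for Hspa5. Without both replicate 1 samples they were -0.03 for Ern1, 0.20 for Atf4, 0.03 for Ddit3 and 0.43 for Atf3, and without both replicate 3 samples -0.04 for Eif2ak3, alternatives added after the data were seen, as were the values without the scaling factors and the pair counts. Leaving a single sample out of a pair was not run with the block, since the other then adds nothing. Fgf21, at 6 to 44 reads, had the fewest reads of the members.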

Other observations

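Eif2ak2, which encodes PKR, the kinase that senses double-stranded RNA, had 10.2, 9.97 and 10.7 FPKM in AdGFP and 12.5, 14.1 and 19.9 FPKM in AdCre. The groups did not overlap, and the log2 fold change was 0.55 (limma adjusted p = 0.374, and 0.065 with the block). Ddit4, an ATF4 target that restrains mTOR, had 58.3, 53.5 and 44.7 FPKM in AdGFP and 34.1, 40.3 and 42.2 FPKM in AdCre, again without overlap, with a log2 fold change of -0.42 (limma adjusted p = 0.416, and 0.131 with the block). Eif2ak2 and Ddit4 were named after their values were seen.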
